A study of Homo sapiens with 6 samples.

Results

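The genes described here encode 60 factors of ribosome production, from RNA polymerase I to the proteins that cut, modify and fold ribosomal RNA. They were taken from a named list, which was chosen with earlier results of these data known. All 60 were found by symbol among the 28265 genes of the count table. The cells were Huh7, a long-established line from a human hepatocellular carcinoma, and their RNA was sequenced 48 h after transduction with a lentivirus. In 3 libraries the vector expressed LHX2, a LIM-homeodomain transcription factor, and in the other 3 it was a control vector, whose cells the labels also call parental. The sources used here do not give the vector's promoter or say whether replicates were separate cultures, so the p-values rest on a spread among libraries that may be technical.

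Ribosome assembly begins in the nucleolus. RNA polymerase I transcribes one long precursor of the 18S, 5.8S and 28S ribosomal RNAs, small nucleolar ribonucleoproteins (snoRNPs) modify it, and large assemblies of processing factors cut and fold it into the 40S and 60S subunits. The genes for these factors are known to be expressed more in growing cells, and enlarged nucleoli are a long-known feature of hepatocellular carcinoma.

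With LHX2, 55 of the 60 genes were lower, 1 was higher and 4 did not pass the test (edgeR quasi-likelihood F-test, Benjamini-Hochberg adjusted p under 0.05 over all 14533 genes tested). Of all genes tested 15.8% were called lower and 16.6% higher. Genes with more reads pass more easily: of the genes averaging 20 CPM or more (CPM being a gene's reads relative to the TMM-scaled library size), 23.9% were lower and 18.6% higher, and 54 of the 57 members at that level were lower. The changes were small. The median log2 fold change (LHX2 minus control) was -0.29 over the 60 genes and 0.01 over all genes tested, and it ran from -0.55 for NOP16 to 0.14 for UBTF. Among genes called lower, the median change was 1.23-fold for the members and 1.196-fold for all genes tested. NOP16, WDR12 and RRS1 were the 3 members at least 1.4-fold lower.

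**Figure D1:**
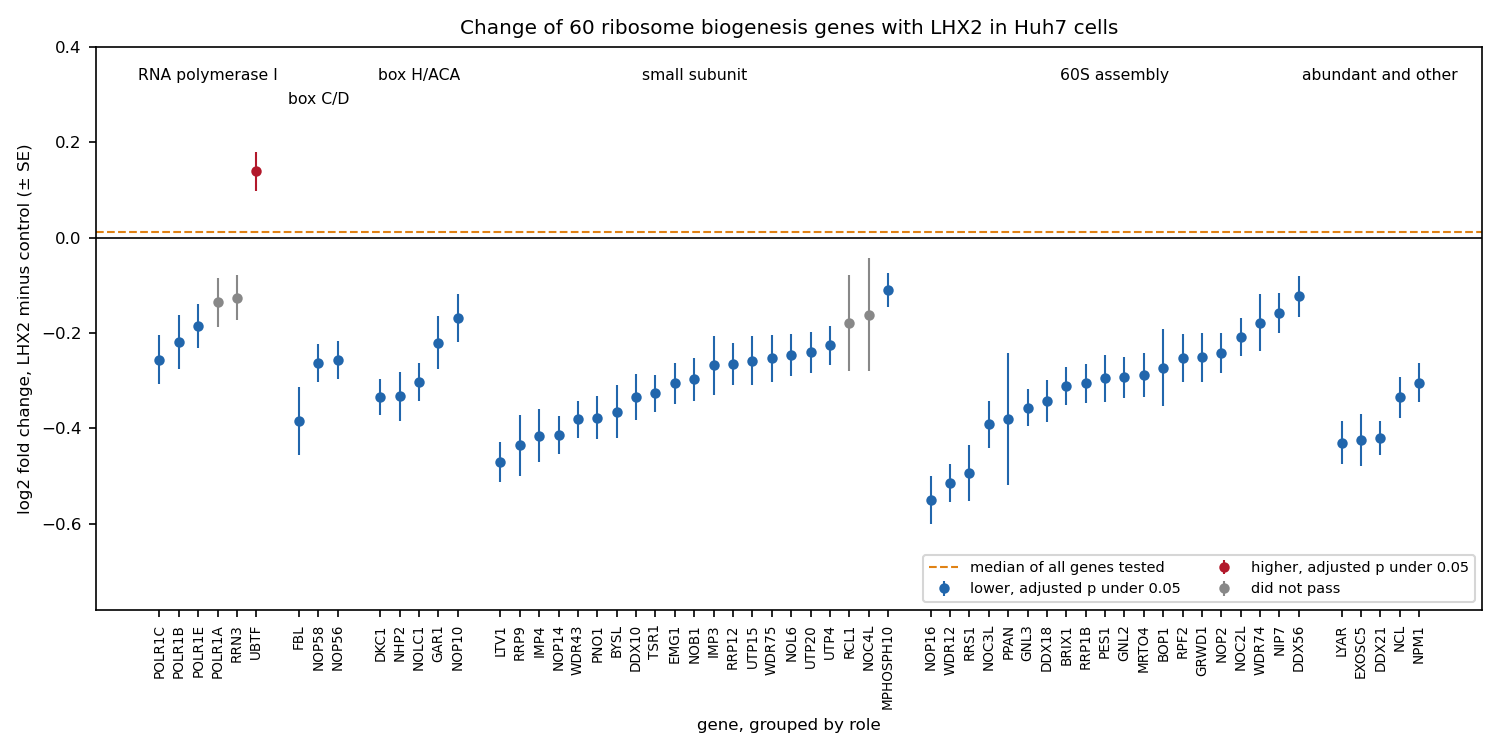
Log2 fold change (LHX2 minus control, vertical axis) with its standard error for the 60 genes, grouped by role on the horizontal axis and coloured by the edgeR call, with the median of all genes tested as a dashed line. Of the 60 points 59 lie below 0, and UBTF is the single point above it.

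Every LHX2 library was below every control library for 55 of the 60 genes, an arrangement found in 22.1% of all genes tested. The reverse arrangement held for UBTF, against 22.9% of genes tested, and the libraries overlapped for POLR1A, PPAN, RCL1 and NOC4L. When all genes tested were ranked by log2 fold change, 31 members lay among the lowest 10% (below -0.29), 56 among the lowest 25% (below -0.13) and 59 below the median. Together the 60 genes took 1.06%, 1.06% and 1.05% of the reads in the control libraries (replicates 1 to 3, the order used for all values by library) and 0.887%, 0.873% and 0.854% in the LHX2 libraries. The Wilson 95% interval of each share reached at most 0.00353 percentage points to either side, for counting error only. The group means were 1.06 ± 0.00636% and 0.871 ± 0.0165% (SD, n = 3), a ratio of 0.825. NCL and NPM1 alone made up 0.420%, 0.418% and 0.420% of control reads and 0.350%, 0.343% and 0.333% of LHX2 reads. The other 58 genes went from 0.644%, 0.637% and 0.631% to 0.538%, 0.530% and 0.521%, so the lower share did not rest on the most abundant pair. These values are shares of a library: less of these RNAs per cell, more of other RNAs and fewer cells that make them cannot be told apart.

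**Figure D2:**
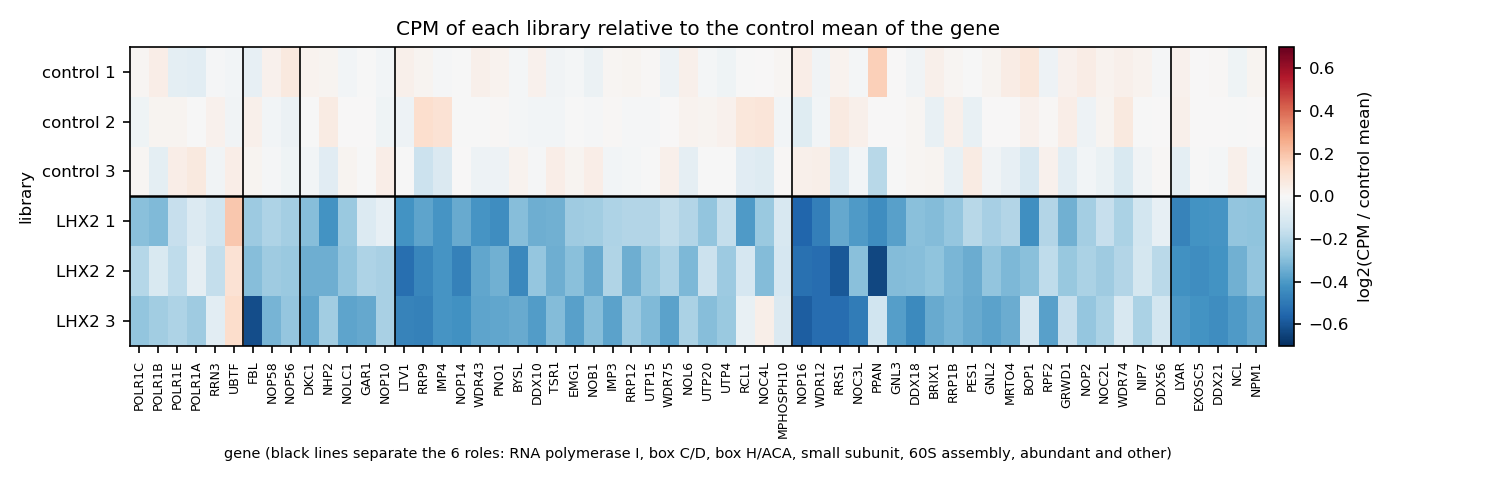
CPM of each library (rows: control 1 to 3, LHX2 1 to 3) relative to the control mean of the gene, on a log2 colour scale, for the 60 genes (columns, in the order of roles). The LHX2 rows are lower for nearly all genes in each library. FBL has 1 LHX2 library far below the other LHX2 libraries, and UBTF is higher in all 3.

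The deposited counts summed to between 30029313 and 39653681 per library, and the lowest count of a member in any library was 116. As a check of the labels, reads of LHX2 itself numbered 1, 2 and 1 under the control vector and 2535, 2427 and 3126 under the LHX2 vector. All 10 genes of a list of hepatocyte markers exceeded 1 CPM in all libraries. Their sum was 49583 to 50989 CPM in the control and 46084 to 50534 CPM in the LHX2 libraries. Most of it came from AFP (mean of 24742 CPM in the control) and ALB (12170 CPM). Within that list 4 genes were lower (APOA2 at -0.36, SERPINA1 at -0.30, HNF4A at -0.26 and TTR at -0.17 on the log2 scale), TF was higher (0.22) and 5, ALB and AFP among them, did not pass. Of the 4 fibroblast markers 0 reached 1 CPM (sum 0.554 to 0.768 CPM in control and 0.366 to 0.444 CPM in LHX2 libraries). Of the 4 endothelial markers PECAM1 did (list sum 3.75 to 4.28 CPM in control and 2.78 to 3.22 CPM in LHX2 libraries), while CDH5 and KDR had no counts. The 4 leukocyte markers summed to 9.19 to 10.7 CPM in control and 17.5 to 18.5 CPM in LHX2 libraries, most of it from CD68, a lysosomal protein that is not limited to leukocytes, and CD3E had no counts. The part of these markers in the results was not tested.

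Before the values by role, the promoters are shown, because many members hold a short sequence near their starts. The sequence and the distance used below were chosen after the data were seen, and the members with earlier results known. The shares below are therefore description only. The RefSeq promoter table (GRCh38.p14; 250 bases before to 50 bases after each transcription start) held 61 windows for 50 of the 60 members. The palindrome CACGTG, the E-box bound by basic helix-loop-helix leucine zipper factors, stood in a window of 23 of these 50 genes (46.0%), against 12.3% of 11306 tested genes with a window and 21.8% of 101 other genes of the ribosome biogenesis pathway. Counted by window, it was in 23 of 61 member windows (37.7%), in 9.19% of the windows of tested genes and in 7.26% of all 35116 windows of the table. Its place was similar among them: in 21 of the 50 genes (42.0%) the hexamer began within 35 bases of the start. For tested genes with a window that share was 3.80%, and it was not counted separately for other pathway genes. In 17 members the hexamer lay after the start. To show the hexamer on either side of the start, 7 members that hold it and fell were chosen, beside UBTF, which rose. Picked by motif and call, this panel cannot show whether the motif goes with the direction. Of the 27 members with a window but no CACGTG, 23 were also called lower. The sequences below show 75 bases before and 25 bases from the start of each. They are written 5′ to 3′ on the strand of the gene, and capitals mark CACGTG or the letters CCGGAAG on either strand.
FBL (chr19:39846355-39846454, minus strand): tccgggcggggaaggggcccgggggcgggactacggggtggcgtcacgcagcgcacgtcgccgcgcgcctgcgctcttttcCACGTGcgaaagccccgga
GNL3 (chr3:52685957-52686056, plus strand): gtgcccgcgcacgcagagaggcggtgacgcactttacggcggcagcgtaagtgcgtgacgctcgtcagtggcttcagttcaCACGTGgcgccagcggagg
WDR43 (chr2:28894592-28894691, plus strand): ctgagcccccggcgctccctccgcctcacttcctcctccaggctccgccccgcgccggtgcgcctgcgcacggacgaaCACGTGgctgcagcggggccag
RRP9 (chr3:51941880-51941979, minus strand): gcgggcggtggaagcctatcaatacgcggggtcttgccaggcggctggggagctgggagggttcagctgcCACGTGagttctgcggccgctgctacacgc
UTP20 (chr12:101280030-101280129, plus strand): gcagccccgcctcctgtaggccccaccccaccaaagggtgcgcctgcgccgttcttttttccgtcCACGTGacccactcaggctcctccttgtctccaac
NOP10 (chr15:34343112-34343211, minus strand): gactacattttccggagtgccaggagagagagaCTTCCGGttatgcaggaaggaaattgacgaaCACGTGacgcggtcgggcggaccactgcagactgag
NOP14 (chr4:2963382-2963481, minus strand): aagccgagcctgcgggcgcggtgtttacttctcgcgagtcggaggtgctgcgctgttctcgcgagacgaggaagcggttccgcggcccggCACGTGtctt
UBTF (chr17:44220858-44220957, minus strand): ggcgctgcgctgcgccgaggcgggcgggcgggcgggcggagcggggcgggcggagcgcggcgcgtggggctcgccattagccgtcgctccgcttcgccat
In FBL and GNL3 the hexamer began at base 7 of the transcript, in WDR43 at base 4 and in NOP14 at base 16, while in RRP9, UTP20 and NOP10 it began 5, 10 and 11 bases before the start. The UBTF stretch holds neither motif. Members without CACGTG in their windows fell as well, among them NOP16 (-0.55) and WDR12 (-0.51), which had the lowest log2 fold changes of all members. GNL3 and UBTF each have a further window in the table, which is not printed and holds no CACGTG. For GNL3 that further window is the one at the first base of the gene position given below.

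The median log2 fold change was -0.37 for the 23 genes with CACGTG, of which 22 were called lower, and -0.26 for the 27 without it, of which 23 were called lower. This difference was not tested. RCL1 was the gene with the hexamer that did not pass. Outside the members, 409 tested genes had CACGTG within 35 bases of a start, and 25.7% of them were called lower and 11.2% higher, with a median of -0.05. The shares were 15.8% and 16.6% over all genes tested, and 23.9% and 18.6% over those averaging 20 CPM or more. The 409 genes were not matched for level, and other genes of the pathway were not removed from them. Over all tested genes with a window, CACGTG was found in 16.8% of those called lower, 10.4% of those called higher and 11.7% of those not called. Searched on both strands, CCGGAAG, the core bound by ETS factors, was in 42.0% of the members with a window, in 40.6% of the other pathway genes and in 21.7% of tested genes. Of the 50 members 36 had at least 1 of the 2 motifs and 8 had both. These 2 counts were not made for other genes, so they are not shown to be particular to the members. TATAAA was in 4.00% of members and 9.00% of tested genes. TAATTA, a core bound by many homeodomain factors, was in 0 of 50 members and in 3.46% of tested genes. CACGTG and CCGGAAG cannot overlap each other by their letters, and a match is a description of the letters only.

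**Figure D3:**
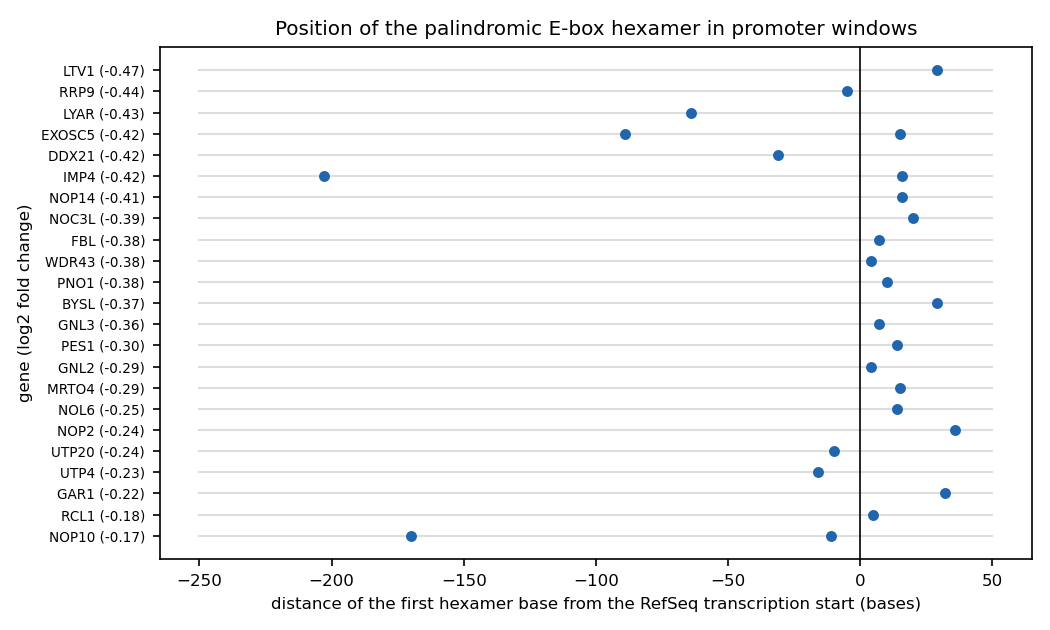
Position of the first base of each E-box hexamer (horizontal axis, bases from the RefSeq transcription start, windows as grey lines) in the 23 members that hold it, ordered by log2 fold change given in brackets. Most points lie close to the start, and 3 genes hold 2 hexamers.

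RNA polymerase I and its initiation factors had the median closest to 0 of the 6 roles and genes that changed in either direction. Of 6 genes 3 fell, 1 rose and 2 did not pass, with a median log2 fold change of -0.16. POLR1C, a subunit shared with RNA polymerase III, had 39.6, 38.4 and 39.6 CPM in the control and 32.1, 34.1 and 32.4 CPM in the LHX2 libraries. All LHX2 libraries were lower, and the log2 fold change was -0.26 ± 0.05 (SE, adjusted p = 0.0013). POLR1B, the second-largest subunit of the enzyme, had 49.7, 48.9 and 46.0 CPM in the control and 39.0, 44.7 and 40.7 CPM in the LHX2 libraries (-0.22 ± 0.06). POLR1E, a subunit that aids initiation and elongation, went from 59.1, 62.8 and 64.0 to 55.3, 54.8 and 53.4 CPM (-0.18 ± 0.05). Neither gene's groups overlapped.

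UBTF (chr17:44205040-44221304), the HMG-box factor that opens ribosomal DNA chromatin and recruits the polymerase, was the member that rose. It had 94.5, 94.2 and 98.9 CPM in the control and 109, 103 and 104 CPM in the LHX2 libraries. The lowest LHX2 library was above the highest control library, with a log2 fold change of 0.14 ± 0.04 (SE, adjusted p = 0.018). The call was not kept when LHX2 replicate 1 (0.11), control replicate 1 (0.13) or control replicate 2 (0.13) was left out, nor after detrending for transcript length and GC content (0.09). RRN3, which links the polymerase to the promoter, had 49.5, 50.8 and 48.9 CPM in the control and 45.2, 44.3 and 47.3 CPM in the LHX2 libraries and just missed the threshold (-0.13 ± 0.05, adjusted p = 0.052). It passed with RLE factors (-0.13) and without LHX2 replicate 3 (-0.15), and its reads may be shared with the 3 RRN3 pseudogenes that the table names. POLR1A, the largest, catalytic subunit, overlapped between groups, with 141, 148 and 156 CPM against 139, 142 and 125 CPM (-0.14 ± 0.05, adjusted p = 0.059). Its call depended on the processing: it passed at -0.33 once detrended for length and GC content, at -0.17 without control replicate 1 or without LHX2 replicate 2, and at -0.14 without a filter on low counts or in DESeq2. It did not pass without LHX2 replicate 3 (-0.08) or without control replicate 3 (-0.10).

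The core proteins of box C/D snoRNPs, which guide 2′-O-methylation of ribosomal RNA, all fell. FBL (chr19:39834458-39846379) encodes fibrillarin, the methyltransferase, and had 427, 456 and 449 CPM in the control and 372, 361 and 289 CPM in the LHX2 libraries. LHX2 replicate 3 was well below the other LHX2 libraries, and all were below the control (-0.38 ± 0.07, SE, adjusted p = 0.00075). NOP56 and NOP58 are the paired scaffold proteins of the same particle. NOP56 had 403, 374 and 376 CPM in the control and 326, 321 and 319 CPM in the LHX2 libraries (-0.26 ± 0.04). NOP58 had 183, 177 and 178 CPM in the control and 154, 151 and 143 CPM in the LHX2 libraries (-0.26 ± 0.04). The scaffold genes differed by nearly the same amount, each without overlap.

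Proteins of box H/ACA snoRNPs, which guide pseudouridylation, fell in 5 of 5 cases when NOLC1, a chaperone of both kinds of snoRNP, is counted with them. DKC1 (chrX:154762864-154777689) encodes dyskerin, the pseudouridine synthase, and had 157, 154 and 152 CPM in the control and 125, 122 and 120.0 CPM in the LHX2 libraries (-0.33 ± 0.04, SE, adjusted p = 9.4e-06). NHP2, a small core protein, went from 76.0, 78.0 and 71.0 to 56.2, 59.1 and 63.3 CPM (-0.33 ± 0.05). NOLC1 went from 317, 322 and 325 to 268, 265 and 248 CPM (-0.30 ± 0.04). These libraries did not overlap between the groups. GAR1, the core protein that aids release of the RNA substrate, fell less, from 83.3, 83.6 and 83.3 to 78.1, 71.8 and 65.1 CPM (-0.22 ± 0.06), with a wider spread among the LHX2 than among the control libraries. After detrending for length and GC its value was -0.14 and still passed. NOP10 was the least changed of the core proteins, at -0.17 ± 0.05, and its call was lost without control replicate 3 (-0.15), LHX2 replicate 2 (-0.14) or LHX2 replicate 3 (-0.14) and after detrending for length and GC (-0.13).

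The small-subunit processome is the assembly around the U3 snoRNP that makes the first cuts toward 18S ribosomal RNA. Of 21 genes for it and for later 40S maturation 19 fell and 2 did not pass, with a median of -0.30. LTV1 (chr6:143843338-143863812), which acts in late 40S maturation, changed most, from 129.8, 123 and 126 CPM in the control to 94.7, 87.9 and 91.3 CPM in the LHX2 libraries (-0.47 ± 0.04, SE, adjusted p = 7.7e-07). NOP14, a processome scaffold protein, had 139 CPM in each control library and 109, 100.3 and 104 CPM in the LHX2 libraries (-0.41 ± 0.04, adjusted p = 2.1e-06). WDR43, a protein of the UTP-A subcomplex, which binds the precursor first, went from 112, 109.7 and 107 to 82.6, 85.2 and 85.1 CPM (-0.38 ± 0.04). For these 3 genes the gap between the groups was several times the spread within either group.

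RRP9, the U3-specific protein, had 47.9, 51.3 and 42.6 CPM in the control and 36.6, 34.4 and 34.0 CPM in the LHX2 libraries (-0.44 ± 0.06, adjusted p = 0.00011). Its control libraries were spread more widely than those of NOP14, but the groups did not overlap. TSR1, a GTPase-like factor of pre-40S particles, went from 124, 124 and 130.0 to 99.9, 99.3 and 102 CPM (-0.33 ± 0.04). IMP4, which pairs U3 with the precursor together with IMP3 and MPHOSPH10, fell to 36.3 CPM in each LHX2 library from 48.2, 51.8 and 45.1 CPM (-0.42 ± 0.06). The members of that trimer did not fall alike: IMP3 was at -0.27 ± 0.06, and MPHOSPH10 was at -0.11 ± 0.04, the smallest change among genes called lower. The MPHOSPH10 call was lost without control replicate 1 (-0.11), 2 (-0.12) or 3 (-0.11), without LHX2 replicate 2 (-0.11) and after detrending for length and GC (-0.06).

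The other members of the group covered the whole pathway to the 40S subunit. PNO1 (-0.38) and NOB1 (-0.30), the pre-40S binding protein and the nuclease that makes the final cut of 18S ribosomal RNA, both fell. BYSL (-0.37) and RRP12 (-0.27), factors of pre-40S assembly and export, and EMG1 (-0.31), a pseudouridine methyltransferase, fell as well. The helicase gene DDX10 was at -0.33. UTP15 (-0.26), WDR75 (-0.25) and UTP4 (-0.23), further proteins of the UTP-A subcomplex, lay close together, as did NOL6 (-0.25) and UTP20 (-0.24). The 2 genes that did not pass were the least abundant of the group. RCL1 had 9.65, 10.2 and 9.15 CPM in the control and 7.36, 8.93 and 9.33 CPM in the LHX2 libraries, and NOC4L had 5.59, 5.92 and 5.24 against 4.66, 4.53 and 5.75 CPM. Their log2 fold changes were -0.18 ± 0.10 and -0.16 ± 0.12 (SE), with wider errors than the other genes of the group, and the libraries overlapped. RCL1 was at -0.09 without LHX2 replicate 1, and NOC4L at -0.28 without LHX2 replicate 3 and at -0.10 without LHX2 replicate 2, none of which passed.

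All 20 genes of 60S assembly were called lower, with a median of -0.29, and the libraries of PPAN alone overlapped. WDR12, BOP1 and PES1 form the PeBoW complex, which is needed for maturation of 28S and 5.8S ribosomal RNA. WDR12 (chr2:202874261-202911673; RefSeq GRCh38.p14, as for the other positions given) had 112, 113 and 117 CPM in the control and 81.8, 78.7 and 78.7 CPM in the LHX2 libraries (-0.51 ± 0.04, SE, adjusted p = 2e-07), the smallest adjusted p among the members. Its partners fell less, PES1 by 0.30 and BOP1 by 0.27 on the log2 scale. BOP1 had 28.7, 27.7 and 25.1 CPM in the control and 20.1, 22.1 and 24.98 CPM in the LHX2 libraries, and its call was lost when LHX2 replicate 1 (-0.21) or 2 (-0.26) or control replicate 1 (-0.23) or 2 (-0.26) was left out. NOP16 (chr5:176383946-176388598), a factor of early pre-60S particles, had the lowest log2 fold change of the members (-0.55 ± 0.05, adjusted p = 1.3e-06), from 51.9, 47.6 and 51.7 to 34.3, 35.02 and 33.8 CPM, or 1.46-fold lower. RRS1, which brings the 5S ribonucleoprotein into pre-60S particles with RPF2, went from 91.1, 93.6 and 83.8 to 69.8, 59.4 and 61.8 CPM (-0.49 ± 0.06), while RPF2 was at -0.25 ± 0.05.

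GNL3 (chr3:52685920-52694497), the nucleolar GTPase nucleostemin, had 154, 154 and 153 CPM in the control and 118, 124 and 117 CPM in the LHX2 libraries (-0.36 ± 0.04, adjusted p = 5.8e-06). The control libraries were within 1 CPM of each other, and no LHX2 library came near them. Its relative GNL2 was at -0.29. The NOC proteins, which accompany pre-60S particles to the nucleoplasm, were at -0.39 for NOC3L and -0.21 for NOC2L. DDX18, a helicase, was at -0.34, BRIX1 and RRP1B at -0.31, the stalk-assembly factor MRTO4 at -0.29, the histone-binding protein GRWD1 at -0.25 and the cytosine methyltransferase NOP2 at -0.24. The smallest falls were those of WDR74 (-0.18), NIP7 (-0.16) and the helicase DDX56 (-0.12). WDR74 was not called without control replicate 1 (-0.16) or 2 (-0.14) or LHX2 replicate 1 (-0.16) or 2 (-0.16), and DDX56 was not called without any 1 of the control libraries (-0.13, -0.12 and -0.12), LHX2 replicate 2 (-0.09) or LHX2 replicate 3 (-0.12). PPAN had few counted reads, with 6.67, 5.95 and 5.17 CPM in the control and 4.39, 3.81 and 5.38 CPM in the LHX2 libraries. Of its exon bases 59.8% lie under exons of other genes on the same strand. Whether this lowers the PPAN count was not tested. Its call (-0.38 ± 0.14, adjusted p = 0.047) was lost under 10 of 15 alternatives, among them the omission of control replicate 1 (-0.29) or 2 (-0.38) or LHX2 replicate 1 (-0.36) or 2 (-0.27).

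Abundant nucleolar proteins and the remaining processing factors had the lowest median of the groups (-0.42), with 5 of 5 lower. NCL (chr2:231453531-231464484) encodes nucleolin, which binds ribosomal RNA and its genes, and had 2297, 2337 and 2403 CPM in the control and 1937, 1856 and 1785 CPM in the LHX2 libraries (-0.34 ± 0.04, SE, adjusted p = 3.1e-05). NPM1, the nucleolar chaperone nucleophosmin, went from 1912, 1896 and 1863 to 1558, 1562 and 1473 CPM (-0.30 ± 0.04), and it has processed sequence copies in the genome that may share its reads. DDX21 (chr10:68956170-68985068), a helicase of ribosomal DNA transcription and snoRNA binding, had 401, 400.3 and 395 CPM in the control and 300.0, 298 and 296 CPM in the LHX2 libraries (-0.42 ± 0.04, adjusted p = 4.7e-07). The groups of these 3 genes were far apart relative to their spread. LYAR, a cell growth-regulating nucleolar protein, went from 71.1, 71.5 and 66.6 to 50.5, 52.0 and 52.8 CPM (-0.43 ± 0.05). EXOSC5, a core subunit of the RNA exosome that trims 5.8S ribosomal RNA, had 33.4 CPM in each control library and 24.97, 24.7 and 25.01 CPM in the LHX2 libraries (-0.42 ± 0.05), with very little spread in either group.

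Levels between genes were compared as CPM per kilobase of the longest annotated transcript. In the control libraries NPM1 was highest at 1075, followed by NCL at 581, FBL at 317, NOP10 at 179 and NOP56 at 129 CPM per kilobase. The lowest were RCL1 at 4.53, PPAN at 3.58 and NOC4L at 3.42. Over the 60 genes the log2 fold change was hardly related to the control level in CPM (Spearman rho -0.08 across genes, which share the libraries and are not independent replicates) and weakly to transcript length (0.22) and GC content (0.09). Across all genes tested these values were -0.22, 0.14 and 0.10.

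Some members carry snoRNAs within their own gene bodies. In GENCODE release 29, 9 of the 60 members (15%) contained a snoRNA gene on the same strand, against 1.76% of all genes tested: NOP56, NOP58, NCL, GNL3, WDR43, DKC1, TSR1, PPAN and POLR1C. All 9 were called lower, with a median of -0.33, beside 46 of the 51 other members, with a median of -0.29. Of 247 tested genes outside the list that contain a snoRNA, 95 were lower (38.5%) and 29 higher, with a median of -0.08. The shares were 15.8% lower and 16.6% higher over all genes tested, and 23.9% and 18.6% over those averaging 20 CPM or more. The 247 genes were not matched for level: their median was 71.8 CPM in the control, against 20.4 CPM for all genes tested. The libraries were made from polyadenylated RNA, so these values concern the host transcripts, and the snoRNAs were not analysed here.

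Reads of overlapping genes could affect some values, since the sources used here do not give the strand setting of the counting. In GENCODE release 29, 9 members have over 15% of their exon bases under an exon on the other strand (NOP14, NOP16, NHP2, POLR1C, EMG1, IMP3, NIP7, NOB1 and TSR1), and 3 under an exon of another gene on the same strand (LTV1, NOP2 and PPAN). Without these, 43 of 48 members were lower, with a median of -0.28.

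Other genes of the pathway were also called lower more often than the 15.8% of all genes tested. The share was 23.9% over genes averaging 20 CPM or more, and these lists were not matched for level. The lists were also chosen with earlier results of these data known. Of 116 further genes 115 were tested, and 69 were lower, 1 was higher and 45 did not pass, with a median of -0.19. Among other RNA polymerase I genes 8 of 16 were lower, including TCOF1, the treacle protein (-0.29), POLR2F (-0.26) and TWISTNB (-0.22). Of 39 tested genes of the small-subunit processome 25 were lower, among them WDR3 (-0.48), the 18S ribosomal RNA methyltransferase gene DIMT1 (-0.60) and DCAF13 (-0.31). Genes of 60S assembly were lower in 22 of 38 cases, with RSL1D1 at -0.43, RSL24D1 at -0.32 and NIFK at -0.35. In the list of the exosome and of snoRNP assembly 14 of 22 were lower, and those with the smallest adjusted p were EXOSC2 (-0.36), RUVBL1 (-0.35) and the exosome helicase gene MTREX (-0.32). EXOSC6, another exosome core subunit, was the 1 gene that was higher, at 36.2 ± 0.774 CPM against 29.5 ± 0.268 CPM in the control (SD, n = 3; 0.29 on the log2 scale).

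**Figure D4:**
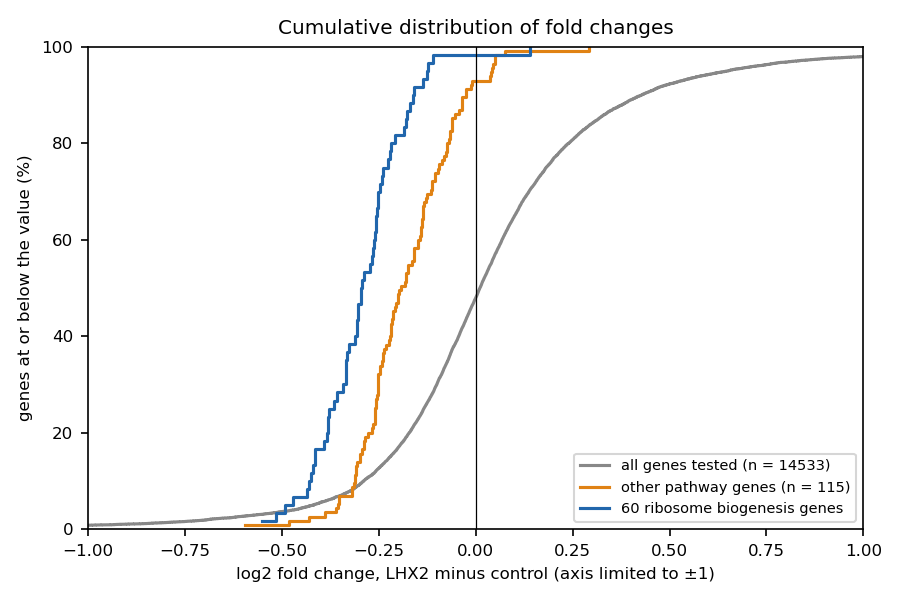
Cumulative percentage of genes (vertical axis) at or below each log2 fold change (LHX2 minus control, horizontal axis limited to ±1) for the 60 members, 115 other tested genes of the pathway and all 14533 genes tested. The curve of the members (median -0.29) lies to the left of that of the other pathway genes (median -0.19), and both lie left of the curve of all genes tested (median 0.01) around their middle.

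The count of lower members changed little with the processing. It was between 50 and 56 of 60 under 15 alternatives, 49 members were called lower in all of them, and the sign of the log2 fold change was kept in 900 of 900 values. With library totals alone 51 were lower (PPAN, WDR74, DDX56 and MPHOSPH10 lost the call), with detrending for length and GC 54 were, and 50 were without control replicate 2 or without LHX2 replicate 2.

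**Figure D5:**
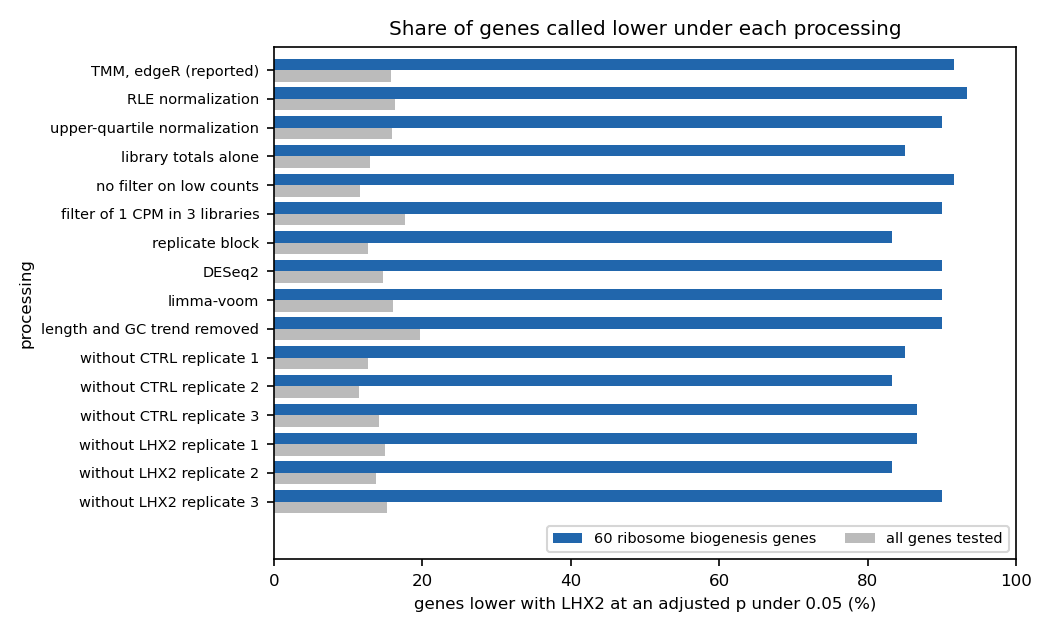
Percentage of genes called lower (horizontal axis, adjusted p under 0.05) under the reported processing and each alternative (vertical axis), for the 60 members (blue) and all genes tested (grey). The members stay between 83.3% and 93.3%, and all genes tested between 11.5% and 19.7%.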

How the data were processed

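The authors deposited raw read counts per gene for 6 libraries, whole numbers without normalization. Per the labels' protocols, a kit for stranded mRNA libraries was used. Per the submitters' processing notes, the tools were featureCounts 2.0.0, TopHat2 2.1.1 with Bowtie2 2.3.5.1, bcl2fastq 2.20, SAMtools 1.9 and FastQC, with the GRCh38/hg38 genome. The sources used here do not give the annotation or strand setting. Each of the 6 columns was matched to a library by name, and 1 control column of another form was taken as control replicate 1 by its final number. Replicates differed by more than sampling noise, and none was merged.

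From the counts, genes were kept by edgeR filterByExpr with a minimum proportion of 0.7, a minimum count of 10 and a minimum total of 15, scaled with TMM factors and compared with the edgeR 4.0.16 quasi-likelihood F-test in R 4.3.3, with the group as the single term. Benjamini-Hochberg adjustment covered the 14533 genes tested. Standard errors were derived from the F statistic. Alternatives used limma 3.58.1 (voom), DESeq2 1.42.0 and a loess trend on transcript length and GC content (span 0.3). Positions and promoters are from RefSeq (GRCh38.p14), and transcript lengths, overlaps and snoRNAs from GENCODE release 29. Tables and figures used matplotlib 3.10.9, numpy 2.4.6 and pandas 2.3.3 in Python 3.11.15.

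The members, roles and other lists were chosen with earlier results of these data known, so no p adjusted over a list and no set test is given. Genes given in every library were the up to 4 of each role with the smallest adjusted p and the 6 lowest log2 fold changes; of the other pathway lists, the 3 with the smallest adjusted p. IMP4, NPM1, RCL1, NOC4L, BOP1, PPAN, POLR1A and RRN3 were added, and EXOSC6 was named, after their values were seen. The motifs and the 35-base distance were also chosen after the data were seen.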

Additional observations from a re-analysis of the deposited data

How the results depend on the processing

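No pairing of the libraries by the numbers 1 to 3 of the labels was evident: same-numbered deviations correlated at -0.06, -0.07 and -0.19. Differently numbered ones correlated at -0.07 to 0.13. With 3 libraries per group, such values cannot show whether libraries of the same number shared a culture or batch. With a replicate block 50 members were lower and 0 higher (UBTF, BOP1, PPAN, WDR74, DDX56 and MPHOSPH10 lost the call), and 1936 of all genes tested were higher and 1832 lower. The single higher member, UBTF, was also lost, leaving 0 higher members, with the length and GC trend removed and in fits without LHX2 replicate 1, control replicate 1 or control replicate 2. When each library was left out in turn, 50 to 54 members were lower and 0 to 1 higher, and their median log2 fold change ran from -0.32 to -0.27. Of 900 member values under the alternatives 46 lost the call, 7 gained it and 0 reversed. The share of higher genes among all genes called was 51.2%, but 59.8% with library totals alone and 44.1% with the length and GC trend removed, and members lower were 51 and 54 in these fits. The members with the lowest control CPM, PPAN, RCL1 and NOC4L, had the widest standard errors (0.14, 0.10 and 0.12 on the log2 scale).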
